A study of Homo sapiens with 4 samples.

Results

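The SWI/SNF, Polycomb and Trithorax regulators are chromatin proteins that control the HOX gene clusters and that are often altered in ovarian cancer. Their transcripts were compared in the ovarian cancer line TOV112D after transfection with a HOXD10 plasmid (HD) and in its control (ND). The 46 genes were chosen by name, and every array probe whose platform symbol was one of them was taken. These were 64 probes of 43 genes, among 28264 probes and 19090 named genes in all. RNF2, CBX8 and ASH1L had no probe under these symbols and were not analysed here. Of the 43 genes, 25 had 1 probe, 15 had 2 and 3 had 3.

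TOV112D is an established cell line from an epithelial ovarian cancer. Antisense RNA amplified from total RNA carried a Cy5 label and was read on oligonucleotide arrays of the whole genome in a single colour, 2 for HD and 2 for ND. HD cells received HOXD10 in a pCDNA plasmid. The legends describe ND as control plasmid, which the methods name as pCDNA3, but the methods also call the cells used for the ND arrays mock-transfected, so what the control received is not settled. Transfection was transient and reached only part of the cells, so the arrays average over transfected and untransfected cells. No source says whether both arrays of a group came from separate transfections, so p-values cover only the variation from array to array, possibly technical.

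Chromatin regulators of these families work in large complexes with opposing effects. SWI/SNF complexes use ATP to move nucleosomes and open chromatin. Polycomb repressive complex 2 (PRC2) methylates lysine 27 of histone H3 (H3K27), and Polycomb repressive complex 1 (PRC1) ubiquitinates histone H2A and compacts chromatin, which keeps HOX genes silent. Trithorax proteins methylate lysine 4 of the same histone (H3K4) and keep HOX genes active, and the demethylases and acetyltransferases remove or compete with these marks. Loss of ARID1A, a SWI/SNF subunit, is frequent in clear cell and endometrioid ovarian cancer, and TOV112D is known as a line that lacks the SMARCA4 protein and has little or no SMARCA2 protein.

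Values are normalized intensities on a linear scale, and the lowest value in the table is 50. The median was 361 on each array, and 4414 to 5579 probes per array were at 50. The probe for HOXD10 was at 50 on all 4 arrays, and whether it meets the plasmid transcript is not known, so it cannot check the transfection. The paper reports more HOXD10 mRNA by qPCR and more protein by western blot in TOV112D cells given the plasmid. It does not say whether these were the cells used for the arrays. As markers of the cell line, VIM and CDH2 were bright in both groups, and KRT7, CDH1 and MUC16 were at 50 on every array. Of 7 mesenchymal markers 0 rose and 0 fell, where 6.67% of all genes rose and 7.97% fell. Their summed intensities were 348040 and 396702 in ND and 382326 and 272250 in HD cells. COL1A2, of the same list, was dim, at 50 and 91.6 in ND against 59.5 and 69.3 in HD cells on its brighter probe. EPCAM rose from 378 and 360.0 to 1767 and 1469, and KRT8 from 50 on both ND arrays to 99.4 and 103. KRT19 fell from 665 and 737 to 345 and 297. MUC1 gave 351 and 495 in ND against 1059 and 907 in HD cells on its brighter probe (adjusted p = 0.0837 from limma). Of 11 epithelial markers 2 rose and 1 fell, beside the same shares of all genes. Their summed intensities were 2076 and 2259 in ND and 4017 and 3424 in HD cells. Beside the same shares, 0 of 7 leukocyte and endothelial markers fell and 1 rose. This was PTPRC, from 81.1 and 99.1 to 277 and 249.9 on its brighter probe, with the other at 50 on all arrays. CD3E stayed between 50 and 53.9 and LYZ was at 50 throughout. CD68, the brightest of the 7, gave 1625 and 2255 in ND against 1254 and 1214 in HD cells. The sums of the 7 markers were 2657 and 3118 in ND and 2121 and 2102 in HD cells. In bulk RNA, fewer cells of a type and less RNA per cell cannot be told apart.

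Most of the regulators did not pass the test, and of those that did all but DPF2 were higher in HD cells. Each gene was described by its brightest probe, and limma tested HD against ND on log2 intensity, with Benjamini-Hochberg adjustment across the 28264 probes. At an adjusted p under 0.05, 8 of the 43 genes rose (18.6%), 1 fell (2.33%) and 34 did not pass, against 6.67% higher and 7.97% lower of all 19090 genes. The genes that rose were SMARCC1, ARID2, PBRM1, EZH2, BMI1, KDM5A, KDM6A and KDM6B, and the gene that fell was DPF2. The study's criteria ask for a change of 1 or more on the log2 scale, in either direction, together with an unadjusted p under 0.05. By these, 6 genes were higher (14%) and 0 lower, against 6.16% and 6.83% of all genes. The shares of all genes include 1862 genes at 50 on all 4 arrays, and among all probes at a mean log2 intensity of 9 to 11, the range with the most probes of the regulators, the share higher was 10.5% to 11.2%. With the 75th percentile of the arrays set equal, 12 rose and 7 fell by adjusted p, and 6 were higher and 1 lower by the study's criteria. No regulator kept an adjusted p under 0.05 when any of the 4 arrays was left out, and 9 to 13 were then higher and 2 to 8 lower at an unadjusted p under 0.05.

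**Figure D1:**
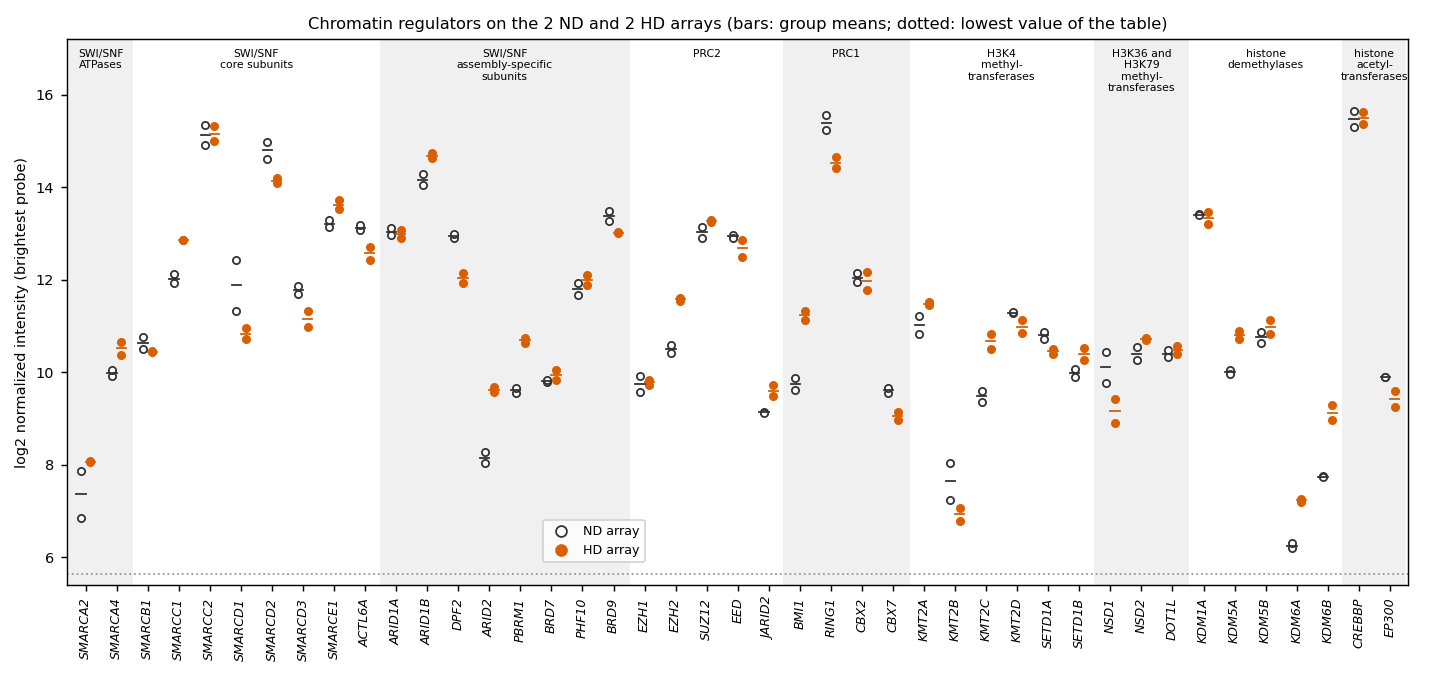
Log2 normalized intensity of the brightest probe of each of the 43 regulators (y axis) on the 2 ND arrays (open) and the 2 HD arrays (filled), with group means as bars and complexes as shaded blocks. The HD points of EZH2, BMI1, ARID2, PBRM1 and KDM6B lie above their ND points, and those of DPF2 and RING1 below.

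Promoter sequences of the regulators were examined for the letters of HOX binding sites, since these genes act on the HOX clusters and EZH2, PBRM1 and DPF2 were among those that changed. HOX proteins of the posterior group, to which HOXD10 belongs, are known to favour sites that begin with TTTAT or TTTAC. Windows of 300 bases, 250 before and 50 after an annotated start site in RefSeq (GRCh38.p14), were at hand for 38 of the 46 genes, 58 windows in all. The longer forms TTTATGG and TTTACGA, read on both strands, were in 0 of these 58 windows, against 2.54% and 0.541% of all 35116 windows. The shorter forms that follow were added after the data and sequences had been seen. The core TTTAT was in 4 windows (6.90%), of EZH2, JARID2, KDM5B and SMARCA2, against 34.9% of all windows, and TTTAC was in 11 (19.0%), against 28.1%. These 11 windows were of ARID1B, DPF2, EZH1, KDM5A, KDM5B, KMT2D, NSD1, PBRM1 and SMARCA2. The windows of the regulators were also richer in G and C, with a median of 71.7% against 58.7%. The form TTTACG, contained in TTTACGA and itself holding TTTAC, was in 2 windows (3.45%), of PBRM1 and DPF2, a share close to the 3.12% of all windows. The other EZH2 window held no TTTAT, and the other PBRM1 window no TTTACG. None of these forms was in the windows of BMI1, KDM6A and KDM6B, which also rose. KDM5A, which rose too, held TTTAC but neither TTTAT nor TTTACG, and for SMARCC1 and ARID2, the remaining genes that rose, no window was at hand. A match is a description of the letters, not a site. The windows that hold the core in EZH2 (chr7:148884242-148884541, minus strand) and TTTACG in PBRM1 (chr3:52685864-52686163, minus strand) and DPF2 (chr11:65333602-65333901, plus strand) are shown 5′ to 3′ in the direction of transcription, because these genes changed and their windows hold these letters. Capitals mark the match, which in all of them lies on the strand opposite to the gene and so reads ATAAA or CGTAAA.
EZH2: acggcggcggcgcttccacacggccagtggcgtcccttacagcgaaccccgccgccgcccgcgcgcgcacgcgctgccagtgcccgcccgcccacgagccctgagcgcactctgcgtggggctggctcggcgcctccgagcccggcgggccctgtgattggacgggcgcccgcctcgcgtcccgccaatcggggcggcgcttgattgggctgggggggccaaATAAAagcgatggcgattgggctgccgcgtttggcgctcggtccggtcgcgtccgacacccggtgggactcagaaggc
PBRM1: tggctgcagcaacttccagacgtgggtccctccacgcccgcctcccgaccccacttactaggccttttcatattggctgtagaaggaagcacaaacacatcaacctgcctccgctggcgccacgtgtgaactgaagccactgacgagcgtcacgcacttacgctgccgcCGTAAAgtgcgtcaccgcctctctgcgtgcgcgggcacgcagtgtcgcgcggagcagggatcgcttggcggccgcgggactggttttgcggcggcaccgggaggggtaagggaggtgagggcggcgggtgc
DPF2: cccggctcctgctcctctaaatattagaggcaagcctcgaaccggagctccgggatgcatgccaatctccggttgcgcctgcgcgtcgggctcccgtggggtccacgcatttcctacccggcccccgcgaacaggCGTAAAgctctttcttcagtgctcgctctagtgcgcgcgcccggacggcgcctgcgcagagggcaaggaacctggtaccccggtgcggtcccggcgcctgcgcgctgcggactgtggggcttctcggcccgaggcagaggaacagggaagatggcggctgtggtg
The match begins 28 bases before the start site in EZH2, 81 before it in PBRM1 and 115 before it in DPF2. PBRM1 and DPF2, with the same match, had log2 fold changes of opposite sign, 1.08 and -0.91.

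Over the 43 genes the median log2 fold change, HD minus ND, was 0.08, and it ran from -0.04 to 0.27 over the 4 pairs of an HD and an ND array. Quantile normalization gave 0.23 and cyclic loess gave 0.32. The same median over all genes was -0.05. The log2 fold changes of the regulators ran from -1.05 for SMARCD1 to 1.49 for BMI1. The 2 groups of arrays did not overlap for 18 genes that were higher in HD (41.9%) and 15 that were lower (34.9%), against 25.2% and 37.4% of all genes. Long transcripts, which are sensitive to RNA quality, were also higher in HD cells. Of 28 genes with such transcripts, none of them a regulator described here, 10 rose and 0 fell, where 6.67% of all genes rose and 7.97% fell. Their median was 0.72, and their summed intensity was 104109 and 96671 in HD against 56332 and 60863 in ND cells. The part of RNA quality in the rises described here was not tested.

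**Figure D2:**
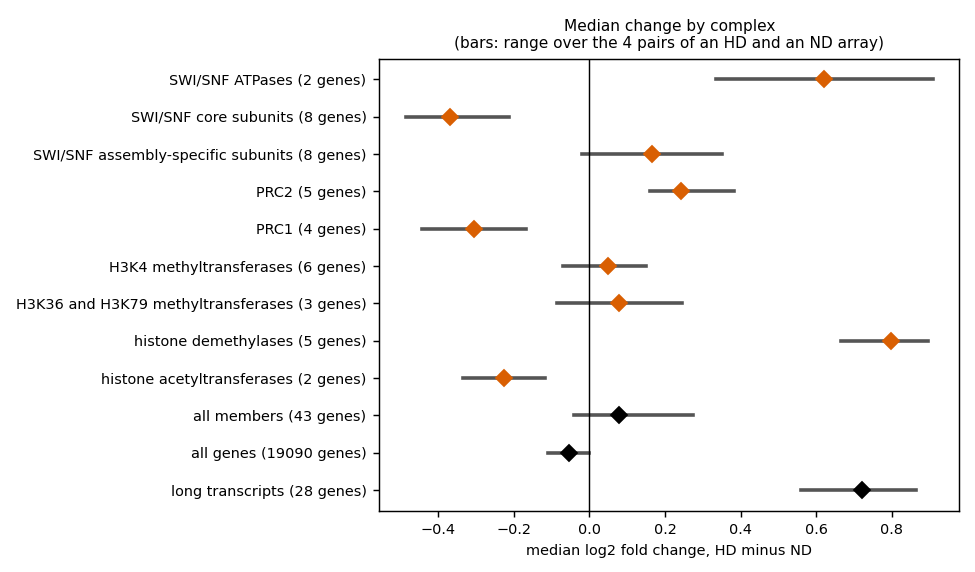
Median log2 fold change, HD minus ND (x axis), of the genes of each complex, of all 43 regulators, of all 19090 genes and of 28 long transcripts, with the range over the 4 pairs of an HD and an ND array as bars. The demethylases have the highest median of the complexes at 0.80 and the SWI/SNF core subunits the lowest at -0.37, while the negative median of the acetyltransferases turns positive after quantile or cyclic loess normalization.

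The ATPases are the motors of SWI/SNF, and each complex holds either SMARCA4 or SMARCA2. SMARCA4 gave 972 and 1059 on the ND arrays against 1624 and 1335 on the HD arrays on its brighter probe, and intensities of 487 and 424 in ND cells and of 798 and 652 after HOXD10 transfection on the other. Both probes were higher on each HD array than on either ND array, with log2 fold changes of 0.54 (standard error 0.137) and 0.67 (standard error 0.157), but neither passed (adjusted p = 0.12 and 0.106 from limma). SMARCA4 transcript was therefore measurable in this line. SMARCA2 gave 234 and 115 in ND against 265 and 271 in HD cells. The ND arrays differed from each other by more than the group means did. The log2 fold change of 0.71 (standard error 0.452, adjusted p = 0.406 from limma) ran from 0.20 without ND replicate 2 to 1.21 without ND replicate 1. The log2 difference between SMARCA4 and SMARCA2 overlapped between the groups, with an HD mean minus ND mean of -0.17.

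Among the core subunits, which are shared between SWI/SNF assemblies though not each by all of them, SMARCC1 stood against most of the others. This scaffold subunit gave 3912 and 4457 on the ND arrays against 7453 and 7495 on the HD arrays and rose 1.79-fold (log2 fold change 0.84, standard error 0.0847, adjusted p = 0.0435 from limma). Its paralogue SMARCC2 gave intensities of 30766 and 41636 in ND cells and of 40837 and 32628 after HOXD10 transfection, with overlapping groups and a log2 fold change of 0.03, and a dimmer SMARCC2 probe had -0.01. The difference between both paralogues on the log2 scale was separate between the groups, and its HD mean exceeded its ND mean by 0.81. Separation of 2 against 2 arrays was common, as 25.2% of all genes were separate and higher and 37.4% separate and lower. It is therefore only described for this and the other pairs of paralogues. SMARCE1, which carries a DNA-binding HMG box, had log2 fold changes of 0.41 and 0.66 on its probes, of which the latter came close to the threshold (adjusted p = 0.0538 from limma).

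The other core subunits lay below 0, and none of them passed. SMARCD1, SMARCD2 and SMARCD3 are alternative subunits that link the complex to transcription factors. SMARCD2 gave 25224 and 32263 in ND against 18916 and 17435 in HD cells, and SMARCD3 gave 3291 and 3721 on the ND arrays against 2559.9 and 2009.5 on the HD arrays, with log2 fold changes of -0.65 and -0.63 (adjusted p = 0.12 and 0.137 from limma). SMARCD1 had the lowest log2 fold change of all the regulators, -1.05, but its ND arrays were far apart, at 5544 and 2579.9, against 1996 and 1678 in HD cells (standard error 0.502, adjusted p = 0.29 from limma). ACTL6A, an actin-related subunit, and SMARCB1, the subunit lost in rhabdoid tumours, had log2 fold changes of -0.55 and -0.19. Of the 8 core subunits 1 rose, 0 fell and 7 did not pass, where 6.67% of all genes rose and 7.97% fell. The HD and ND arrays of these subunits did not overlap for 2 that were higher and 5 that were lower. Among all genes 25.2% and 37.4% were so. The median of the core subunits was -0.37, and -0.18 after quantile and -0.15 after cyclic loess normalization. Bright probes were lower in HD cells in general. The median of all probes was -0.59 at a mean log2 intensity of 14 to 15, the step of SMARCD2. It was -0.24 at 12 to 13, the step that holds the median brightness of the core subunits, 12.6.

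SWI/SNF occurs in assemblies that differ in a few subunits. Of the 8 assembly-specific subunits among the regulators, the 2 that rose belong to the PBAF assembly. SS18, a BAF subunit described below with the partner genes, rose as well. ARID2, the DNA-binding subunit of PBAF, gave intensities of 263 and 309.8 in ND cells and of 820.2 and 761 after HOXD10 transfection and rose 2.77-fold (log2 fold change 1.47, standard error 0.116, adjusted p = 0.0389 from limma). Its dimmer probe rose as well, from 78.3 and 76.5 to 134 and 121 (log2 fold change 0.72, adjusted p = 0.043 from limma). After quantile normalization its log2 fold change was 0.83 but its adjusted p was 0.0667 from limma. PBRM1, the bromodomain subunit of PBAF, gave 748 and 815 in ND against 1592 and 1719.8 in HD cells on its brighter probe, a 2.12-fold rise (log2 fold change 1.08, standard error 0.0753, adjusted p = 0.0368 from limma). On its dimmer probe the groups overlapped, at 160.3 and 238 on the ND arrays against 207 and 174 on the HD arrays. BRD7 and PHF10, further PBAF subunits, had log2 fold changes of 0.14 and 0.20, with overlapping groups.

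The subunit that fell belongs to the canonical BAF assembly. DPF2, which reads acetylated histones, gave intensities of 7717 and 8149.8 in ND cells and of 4563 and 3893 after HOXD10 transfection and was 1.88-fold lower in HD cells (log2 fold change -0.91, standard error 0.108, adjusted p = 0.0486 from limma). DPF2 is bright, and the median of all 1732 probes of like brightness, at a mean log2 intensity of 12 to 13, was -0.24. ARID1A, the DNA-binding subunit of the same assembly, gave 8039 and 8857 in ND against 8659 and 7703 in HD cells, with overlapping groups and a log2 fold change of -0.05. Its paralogue ARID1B gave 16921 and 19927 on the ND arrays against 25425 and 27283 on the HD arrays, with log2 fold changes of 0.52, 0.40 and 0.09 on its probes, none of which passed (adjusted p between 0.0843 and 0.911 from limma). The log2 difference between ARID1B and ARID1A was separate between the groups and was 0.57 higher in HD cells. BRD9, which marks the non-canonical BAF assembly, had -0.37 on its brighter and 0.17 on its dimmer probe, and neither passed. Of these 8 assembly-specific subunits 2 rose, 1 fell and 5 did not pass, where 6.67% of all genes rose and 7.97% fell.

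**Figure D3:**
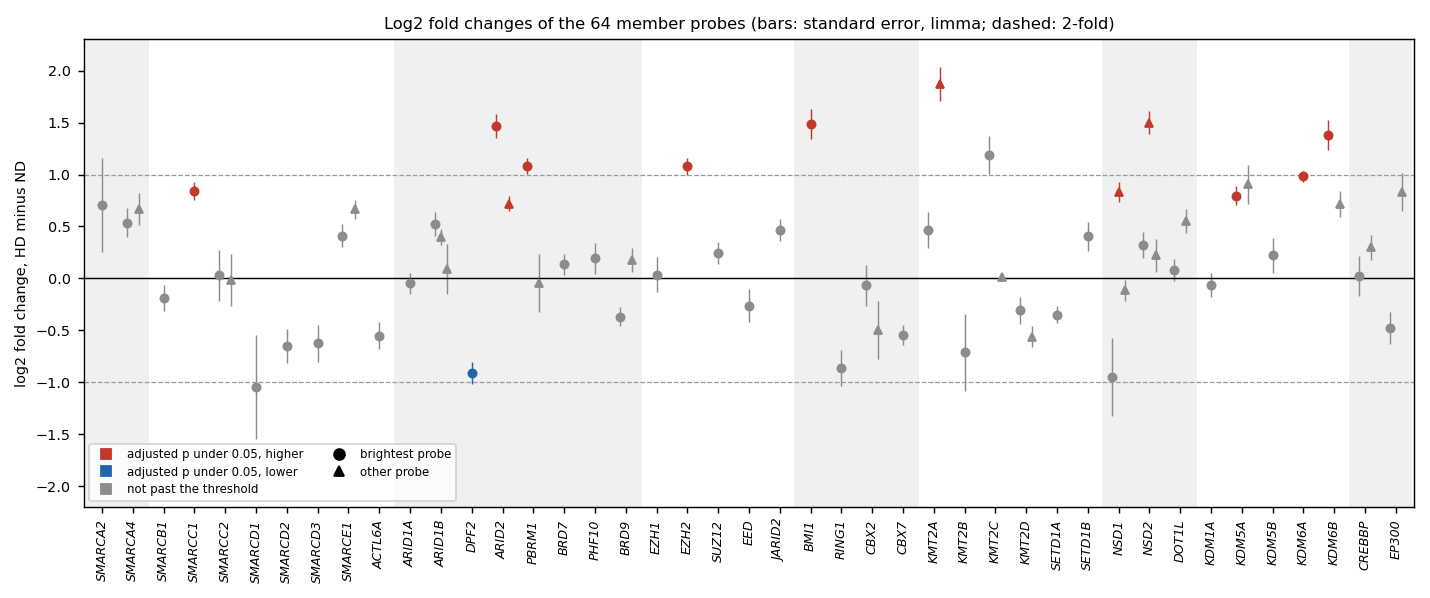
Log2 fold change, HD minus ND (y axis), of the 64 probes of the 43 regulators, with the limma standard error as bars, circles for the brightest probe of a gene and triangles for the others, and red and blue for probes that passed an adjusted p under 0.05. Of the 64 probes 12 lie in red above 0 and 1, DPF2, in blue below 0.

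PRC2 writes the H3K27 methyl mark, and its catalytic subunit EZH2 rose. EZH2 gave intensities of 1370.3 and 1538 in ND cells and of 3129 and 3005 after HOXD10 transfection, a 2.11-fold rise (log2 fold change 1.08, standard error 0.0793, adjusted p = 0.0374 from limma). Its paralogue EZH1, which is more typical of non-dividing cells, gave 974 and 758 in ND against 915 and 847 in HD cells, with overlapping groups and a log2 fold change of 0.04. The log2 difference between EZH2 and EZH1 was 1.04 higher in HD cells, and the groups were separate. The obligate partners of these enzymes moved less. SUZ12 had a log2 fold change of 0.24 and EED of -0.26 (adjusted p = 0.261 and 0.391 from limma). JARID2, which recruits PRC2 to its targets, gave 569 and 558 on the ND arrays against 847 and 715 on the HD arrays, higher on both HD arrays but not past the threshold (log2 fold change 0.47, adjusted p = 0.107 from limma).

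PRC1 members went in both directions. BMI1, the ring finger subunit that is known for silencing the CDKN2A locus, gave intensities of 790.3 and 937 in ND cells and of 2585 and 2249.8 after HOXD10 transfection. It rose 2.8-fold (log2 fold change 1.49, standard error 0.141, adjusted p = 0.0425 from limma), the largest log2 fold change of the 43 brightest probes. RING1, the ubiquitin ligase subunit, gave 38672 and 48292 in ND against 25726 and 21972 in HD cells. Both HD arrays were below both ND arrays, and the log2 fold change, -0.86, missed the threshold (standard error 0.175, adjusted p = 0.0871 from limma). RING1 is also among the brightest of these probes, and the median of all 712 probes of like brightness, at a mean log2 intensity of 14 to 15, was -0.59. CBX7 and CBX2, which carry the chromodomain that binds methylated H3K27, had log2 fold changes of -0.55 (adjusted p = 0.0701 from limma) and -0.07, with -0.50 on a dimmer CBX2 probe. CBX7 gave 748 and 815 on the ND arrays against 567 and 505 on the HD arrays, and its 2 ND values were identical to those of the brighter PBRM1 probe while the HD values were not. Of 4 measured PRC1 genes 1 rose, 0 fell and 3 did not pass, and of 5 PRC2 genes 1 rose, 0 fell and 4 did not pass. Among all genes 6.67% rose and 7.97% fell.

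The methyltransferases of the Trithorax group showed their changes on particular probes. KMT2A, the gene rearranged in infant leukaemia and a direct activator of HOX genes, gave intensities of 1821 and 2372 in ND cells and of 2947 and 2799 after HOXD10 transfection on its brighter probe, which did not pass (log2 fold change 0.47, standard error 0.173, adjusted p = 0.206 from limma). On its other probe it gave 281 and 336 in ND against 1231 and 1026 in HD cells, a 3.66-fold rise (log2 fold change 1.87, standard error 0.164, adjusted p = 0.0409 from limma) and the largest log2 fold change of the 64 probes. KMT2C, a methyltransferase of enhancers, gave 660.2 and 776 on the ND arrays against 1452 and 1828 on the HD arrays. It met the study's criteria with a log2 fold change of 1.19, but its adjusted p was 0.061 from limma, and its other probe was at 50 on all but 1 array. KMT2D, the paralogue of KMT2C, lay the other way on both probes, with log2 fold changes of -0.31 and -0.56 (adjusted p = 0.244 and 0.073 from limma). The log2 difference between KMT2C and KMT2D was 1.49 higher in HD cells and separate between the groups.

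KMT2B, the paralogue of KMT2A, was dim, at intensities of 262 and 152 in ND cells and of 110.5 and 134 after HOXD10 transfection, with a log2 fold change of -0.71. SETD1A and SETD1B, the catalytic subunits of the SET1 complexes that write most H3K4 trimethylation, had -0.35 and 0.41 (adjusted p = 0.1 and 0.184 from limma). Each was separate between the groups, in opposite directions. By their brightest probes, 0 of the 6 H3K4 methyltransferases passed limma's adjusted p. By the study's criteria 1 of them, KMT2C, was higher, against 6.16% of all genes. Their median of 0.05 ran from -0.06 to 0.17 with an array left out, so it had no stable direction.

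NSD1 and NSD2, which methylate lysine 36 of histone H3, differed between their own probes. The brightest NSD1 probe gave 873 and 1391 in ND against 682 and 477 in HD cells (log2 fold change -0.95, standard error 0.376, adjusted p = 0.225 from limma). A second one rose from 532 and 583 to 938 and 1053 (log2 fold change 0.84, standard error 0.0956, adjusted p = 0.0472 from limma), and the last was at 50 on all but 1 array. For NSD2, the brightest probe gave 1235 and 1491 on the ND arrays against 1668 and 1723 on the HD arrays and did not pass (log2 fold change 0.32), while the next rose from 369.7 and 430.2 to 1174 and 1081, 2.82-fold (log2 fold change 1.50, standard error 0.111, adjusted p = 0.0377 from limma). DOT1L, the methyltransferase of lysine 79 of histone H3, had log2 fold changes of 0.08 and 0.56, neither past the threshold.

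Histone demethylases held the most rises for their number, 3 of 5, with 0 falls and a median of 0.80. Among all genes 6.67% rose and 7.97% fell. A list of 9 further demethylases had 0 rises, 0 falls and a median of 0. In that list KDM5C was lower by the study's criteria, as were 6.83% of all genes (log2 fold change -1.08, adjusted p = 0.0601 from limma). KDM3A lay the other way, with a log2 fold change of 0.82 (adjusted p = 0.0592 from limma). KDM6B and KDM6A remove the methyl groups that PRC2 places on H3K27. KDM6B gave intensities of 216 and 213 in ND cells and of 501 and 624 after HOXD10 transfection, a 2.6-fold rise (log2 fold change 1.38, standard error 0.142, adjusted p = 0.0438 from limma), and its dimmer probe was higher on both HD arrays without passing (log2 fold change 0.71, adjusted p = 0.0737 from limma). KDM6A was dim, at 73.6 and 79 in ND against 147 and 154 in HD cells, and rose 1.97-fold (log2 fold change 0.98, standard error 0.0564, adjusted p = 0.0343 from limma). With 50 added to every value before the log2, the change of KDM6A was 0.67.

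KDM5A and KDM5B remove H3K4 trimethylation. KDM5A gave 1066 and 1002 on the ND arrays against 1907 and 1691 on the HD arrays and rose 1.74-fold (log2 fold change 0.80, standard error 0.0875, adjusted p = 0.0458 from limma). Its other probe was similarly higher, with a log2 fold change of 0.91, but did not pass (adjusted p = 0.0898 from limma). KDM5B gave intensities of 1601 and 1865 in ND cells and of 2249.7 and 1807 after HOXD10 transfection, with overlapping groups and a log2 fold change of 0.22. KDM1A, the demethylase of the CoREST complex, gave 10925 and 10775 in ND against 11378 and 9504 in HD cells, and its log2 fold change was -0.06.

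The acetyltransferases CREBBP and EP300, coactivators that acetylate H3K27, did not pass on any probe. CREBBP was bright, at 40297 and 51745 on the ND arrays against 50692 and 42469 on the HD arrays, with a log2 fold change of 0.02 on this probe and 0.30 on a dimmer one. The probes of EP300 went in opposite directions. The brighter gave intensities of 955 and 949 in ND cells and of 609 and 769.6 after HOXD10 transfection, lower on both HD arrays (log2 fold change -0.48, standard error 0.151, adjusted p = 0.164 from limma), and the dimmer gave 228 and 262 in ND against 495 and 383 in HD cells, higher on both (log2 fold change 0.83, standard error 0.186, adjusted p = 0.0991 from limma). The median of both genes, -0.23, was 0.13 after quantile normalization, 0.10 after cyclic loess and 0.17 when all probes of a gene were averaged, so no direction is given for them.

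Disagreement between probes limited what could be said of single genes. Of 18 regulators with several probes, 13 had log2 fold changes of the same sign on all of them and 5 did not, namely SMARCC2, PBRM1, BRD9, NSD1 and EP300. In 6 genes the probes differed by over 1 on the log2 scale, most in NSD1, at 1.79, and KMT2A, at 1.40. Of the 64 probes, 12 rose and 1 fell, against 6.65% and 7.19% of all probes, and 3 genes, KMT2A, NSD1 and NSD2, rose only on a dimmer probe. Which exons or transcripts these probes meet is not known here, so a change of isoform and a difference in probe specificity cannot be told apart.

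**Figure D4:**
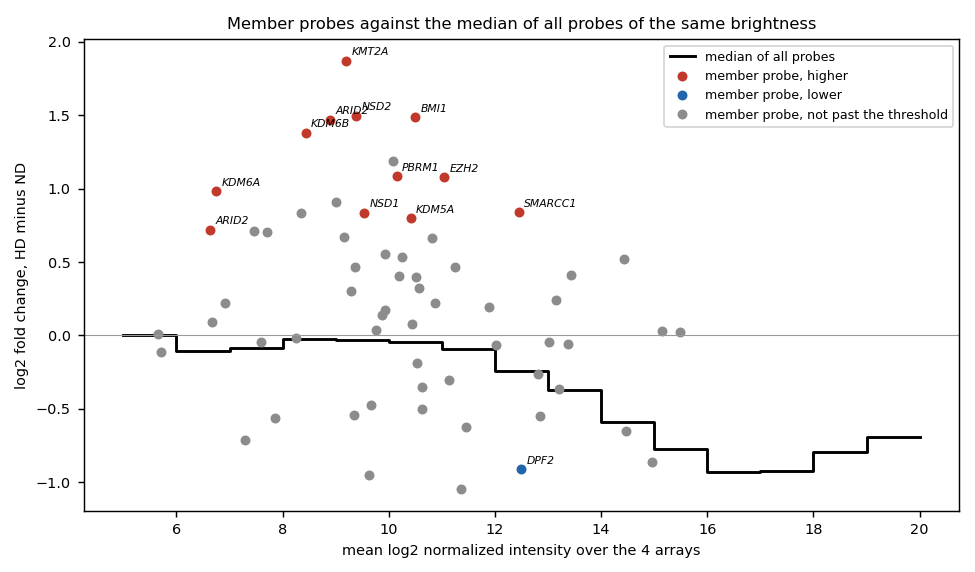
Log2 fold change, HD minus ND (y axis), of the 64 member probes against their mean log2 intensity over the 4 arrays (x axis), with the median of all probes in steps of 1 as a line. The line falls to -0.93 at mean log2 intensities of 16 to 18 and lies at -0.80 and -0.69 in the steps from 18 to 20. The brightest probes of the 8 genes that rose lie at mean log2 intensities of 6.74 to 12.4.

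Brightness moved with the fold changes on these arrays. The median log2 fold change of all probes was -0.04 between a mean log2 intensity of 10 and 11, and -0.78 between 15 and 16. By the study's criteria, 10.5% of all probes at a mean log2 intensity of 9 to 10 and 11.2% of those at 10 to 11 were higher, and each of these steps held 14 of the 64 probes of the regulators. The 8 regulators that rose lay at mean log2 intensities of 6.74 to 12.4, where the medians of all probes were between -0.24 and -0.03. CREBBP and SMARCC2, at mean log2 intensities between 15 and 16, had log2 fold changes near 0 on their brightest probes. After quantile normalization 13 regulators rose and 3 fell, and after cyclic loess normalization 16 rose and 3 fell.

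Further genes of the same complexes and of related chromatin regulators were taken from lists of 101 genes, of which 99 were measured. Of these 10 rose, 5 fell and 84 missed limma's adjusted threshold, against 6.67% higher and 7.97% lower of all genes, and their median log2 fold change was 0. The counts in each list below stand beside the same shares of all genes, and no test was made of any list. SS18, a BAF subunit fused in synovial sarcoma, rose from 1533 and 1639 to 4613 and 4517 (log2 fold change 1.53, adjusted p = 0.0256 from limma). It was 1 of 13 genes listed with SWI/SNF, which include the related enzymes SMARCAD1 and SMARCAL1. SS18 was the only one of them whose brightest probe had an adjusted p under 0.05. SS18L1, its paralogue, met the study's criteria (log2 fold change 1.10, adjusted p = 0.0516 from limma), and a dimmer probe of BICRAL passed the adjusted threshold (log2 fold change 0.83, adjusted p = 0.0373 from limma), both named after their values were seen. Among 8 further PRC2 genes, AEBP2 rose from 872 and 973 to 3036 and 2700.2 (log2 fold change 1.64, adjusted p = 0.0358 from limma). PHF19, which binds methylated lysine 36 of histone H3 and brings PRC2 to chromatin, was lower, at 9844 and 10508 on the ND arrays against 5048 and 4151 on the HD arrays (log2 fold change -1.15, adjusted p = 0.0474 from limma). Its dimmer probe fell too, with a log2 fold change of -1.43.

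Of 17 PRC1 partners, RYBP, a subunit of variant PRC1, rose with a log2 fold change of 1.21, and BCORL1, a corepressor, had -0.72 and passed (adjusted p = 0.0394 and 0.0484 from limma). The complex that removes ubiquitin from histone H2A, PR-DUB, held 2 rises among 6 genes. ASXL2 rose from 1629.7 and 1871 to 4154 and 4072, and ASXL3, at 50 on both ND arrays, reached 131 and 118 on the HD arrays, at least 2.48-fold more (adjusted p = 0.0373 and 0.0331 from limma). Of 12 partners of the H3K4 methyltransferases 0 rose and 2 fell. DPY30, a core subunit of all these complexes, gave intensities of 52474 and 58979 in ND cells and of 27427 and 25189 after HOXD10 transfection, and ASH2L, another, gave 1451 and 1466 in ND against 1158 and 1186 in HD cells, with log2 fold changes of -1.08 and -0.32 (adjusted p = 0.0404 and 0.0364 from limma). DPY30 is bright, and the median of all probes as bright, at a mean log2 intensity of 15 to 16, was -0.78.

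Among 16 ISWI, CHD and INO80 remodellers 5 rose and 1 fell, where 6.67% and 7.97% of all genes did so. SMARCA1, an ISWI ATPase, rose from 6436 and 7032 to 14355 and 13240.2, EP400 had a log2 fold change of 0.82, and RUVBL2, a helicase of the INO80 complex, had -0.58 (adjusted p = 0.0377, 0.0416 and 0.0281 from limma). The other rises of this list were CHD2, CHD6 and CHD7, which are named here after their values were seen. By their brightest probes, 0 of 27 further methyltransferases, demethylases and acetyltransferases passed limma's adjusted p. By the study's criteria SUV39H2 was higher (log2 fold change 1.42) and KDM5C lower (-1.08), against 6.16% and 6.83% of all genes. Dimmer probes passed for KMT5B (log2 fold changes 1.15 and 1.14), KAT6A (1.22) and NSD3 (0.23). That NSD3 probe was at 50 on both ND arrays. These genes were also named after their values were seen.

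**Figure D5:**
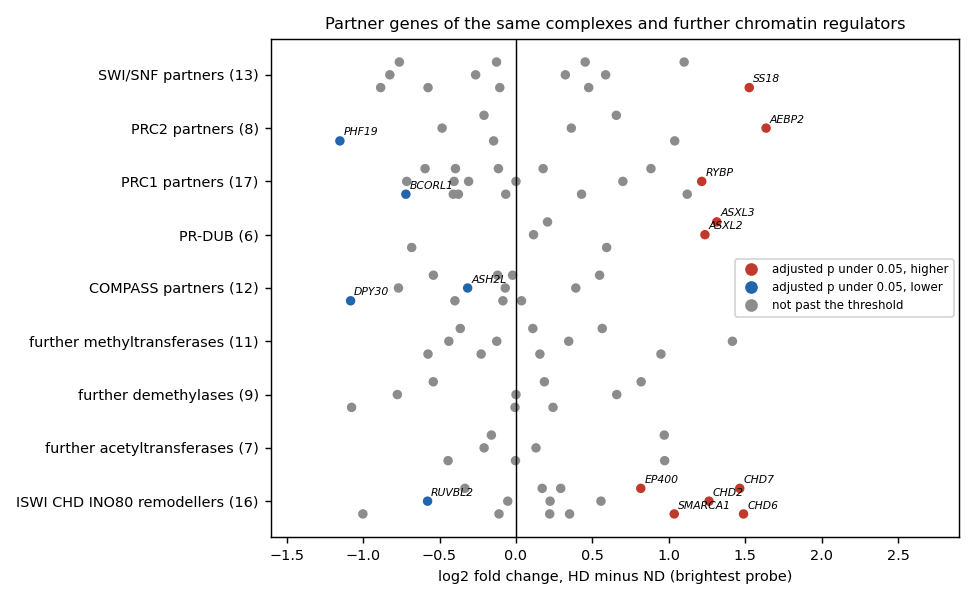
Log2 fold change, HD minus ND (x axis), of the brightest probe of 99 partner genes and further chromatin regulators, by list (y axis, number of measured genes in parentheses), with names for the 15 genes past an adjusted p under 0.05. Of these 15 genes, 10 lie to the right of 0 and 5 to the left.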

How the data were processed

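Labelled RNA of TOV112D cells was measured on 4 arrays of the Human Whole Genome OneArray, 2 HD and 2 ND. The authors scanned the arrays, quantified them with GenePix and normalized them in Rosetta Resolver, where the methods name centring on the 75th percentile. The deposited intensity values are linear, with none below 50, and the arrays share their median. Whether background was subtracted is not known from the sources used here. Array signal has no depth, and the number of arrays limits the precision.

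The log2 of the deposited values went into a single fit of all 28264 probes (limma 3.58.1, R 4.3.3, lmFit and eBayes), with no further scaling, filter or block, and with Benjamini-Hochberg adjustment. The script was tested on simulated data. An exact permutation test of 2 against 2 arrays cannot go below p = 0.333 (two-sided) and was not used. Platform annotation gave 25893 probes a single symbol and 2371 none. A gene was described by its brightest probe, the one with the highest mean log2 value. Named genes were all members, with array values for those past either threshold and for SMARCA2, SMARCA4, EZH2, KMT2A and EP300, members with probes called in opposite directions, and up to 3 called partner genes per list. Array values of further members were added after they were seen. The members and lists were chosen with earlier results of these data known. Pairs of paralogues were compared by the difference of their log2 values on each array. Alternatives covered normalization, a pseudocount of 50, a filter on dim probes, moderation of the variance, a block for the replicate number, each array left out, the probe taken for a gene and the call rule.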

Additional observations from a re-analysis of the deposited data

How the results depend on the processing

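By limma's adjusted p, 8 regulators rose and 1 fell, and these counts were the same with a pseudocount of 50 and with eBayes with trend. They were 13 and 3 after quantile normalization, 16 and 3 after cyclic loess normalization, 12 and 7 with the 75th percentile set equal, 9 and 9 with only the 23902 probes above the lowest value on at least 2 arrays, and 9 and 1 with the mean of all probes of a gene. With robust eBayes they were 0 and 0, with 11 higher and 5 lower at an unadjusted p under 0.05. Without any one of the 4 arrays (ND replicate 1 or 2, HD replicate 1 or 2) they were 0 and 0, where the smallest adjusted p of any probe was 0.0665 to 0.127, and 9 to 13 regulators were higher and 2 to 8 lower at an unadjusted p under 0.05. By the study's criteria, 6 higher and 0 lower, the counts without an array ran from 5 to 7 and from 0 to 1, and 1 regulator was lower with the 75th percentile set equal or with the filter. After quantile and after cyclic loess normalization 9 were higher and 0 lower by these criteria. With the replicate number as a block, 0 rose and 0 fell (11 and 1 at an unadjusted p under 0.05), as no probe had an adjusted p under 0.142. Arrays of the same number did not deviate together (r = -0.32 over all probes, which are not independent), and with the crossed pairing, chosen after seeing the data, the counts were also 0 and 0 (11 and 8 at an unadjusted p under 0.05). Of the medians by complex, after quantile and cyclic loess normalization those of all regulators were 0.23 and 0.32, of the SWI/SNF core subunits -0.18 and -0.15, of PRC2 0.46 and 0.43, of PRC1 -0.12 and -0.072 and of the acetyltransferases 0.13 and 0.10. With the mean of all probes of a gene, the acetyltransferases had 0.17 and the methyltransferases of lysines 36 and 79 had 0.32. With the pseudocount, the demethylases had 0.67. Without an array, the medians ran from 0.22 to 0.36 for PRC2, from -0.063 to 0.17 for the H3K4 methyltransferases and from -0.013 to 0.17 for those of lysines 36 and 79. Of the 64 probes of the regulators, 53 kept their direction under every alternative run on probes, among them the 13 with an adjusted p under 0.05, and 11 did not. The HD and ND arrays of these 13 did not overlap, so leaving out an array could not reverse their direction. Neither could the pseudocount, the filter, the blocks or the moderation of the variance. For these 13, only the normalizations could have changed the direction. After quantile and cyclic loess normalization the log2 fold changes were 0.20 and 0.28 for ARID1A, 0.23 and 0.32 for KDM1A and 0.040 and 0.11 for the brighter CBX2 probe. The dimmer SMARCC2 and PBRM1 probes had 0.026 and 0.018 after quantile normalization, and EED had 0.033 after cyclic loess normalization. Without an array, the values ran from -0.19 to 0.25 and from -0.29 to 0.27 for the brighter and dimmer SMARCC2 probes, from -0.13 to 0.037 for ARID1A, from -0.15 to 0.33 for the dimmest ARID1B probe, from -0.33 to 0.24 for the dimmer PBRM1 probe, from -0.15 to 0.22 for EZH1, from -0.26 to 0.13 for the brighter CBX2 probe, from -0.013 to 0.17 for the brighter DOT1L probe, from -0.19 to 0.069 for KDM1A and from -0.16 to 0.20 for the brighter CREBBP probe. Where no cause is given above, the cause was not tested. The number of arrays, 2 per group, and the lowest value of 50 limit what could be detected.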
